A study of Mus musculus with 4 samples.

Results

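The Bcl2 family decides whether a cell opens its mitochondrial outer membrane and dies. The genes followed here are 10 of its best-known members, chosen by symbol from the 30282 genes of the table: the pro-survival genes Mcl1, Bcl2 and Bcl2l1 (BCL-XL), the effectors Bax and Bak1, and the BH3-only genes Bcl2l11 (BIM), Bbc3 (PUMA), Pmaip1 (NOXA), Bid and Bad. All 10 had a row, and 9 passed the filter of a mean normalised read count of at least 10 over the 4 libraries. Bcl2 did not.

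The libraries are poly(A) RNA-seq of mouse embryonic stem cells (line V6.5) kept in CHIR99021 and PD0325901, which inhibit GSK3 and MEK. All cells carried RPB3, the RNA polymerase II subunit encoded by Polr2c, fused to mAID and GFP, and all received doxycycline (1 µg/ml, 12 h) to induce TIR1, the F-box protein through which auxin destroys the tagged protein. Nothing more was added in the 2 untreated libraries, and 500 µM of the auxin IAA followed for 12 h in the 2 IAA libraries. The sample labels give this time, while another sentence of the protocol speaks of a depletion of 1 h in poly(A) RNA-seq. Cells given IAA but lacking the degron were not analysed here, so effects of IAA itself and of RPB3 loss cannot be told apart. The labels do not say whether the libraries came from separate cultures or clones, and the p-values then measure the spread between these libraries.

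Healthy cells survive because MCL1, BCL2 and BCL-XL bind and restrain BAX and BAK, which otherwise assemble into pores that release cytochrome c. BH3-only proteins tip this balance: BIM, PUMA and BID can engage BAX and BAK directly, while NOXA and BAD act mainly by occupying pro-survival partners, NOXA binding MCL1 and BAD binding BCL2 and BCL-XL. MCL1 is known for its short-lived mRNA and protein, and inhibitors of transcription commonly lower it. The comparison therefore asks whether the mRNA of Mcl1, and the balance of its relatives, differ after RPB3 is degraded.

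Values are the deposited normalised read counts, reads divided by a size factor of each library. Polr2c mRNA stood at 2726 and 2885 untreated and at 3242 and 3158 after IAA, which does not check the labels because the degron acts on protein. Reads recovered per library numbered 8724737 to 9194432. All 10 stem cell markers were well read, summing to 62356 and 63935 untreated and to 65452 and 62934 after IAA, although 4 of them were called lower (from Dppa5a at -0.36) and 4 higher (up to Klf2 at 0.43). Of 10 fibroblast (feeder) markers, 6 had a row, and they summed to 458 and 527 untreated and to 382 and 381 after IAA. Of the 4 tested, Col1a1 (log2 fold change -0.76) and Thy1 (-0.78) were called lower, and Twist1 (-0.23) and Pdgfrb (-0.10) were not called. In the authors' deposited table neither Col1a1 (adjusted p = 0.381) nor Thy1 (0.0911) passed. The defining collagen gene Col3a1 lay between 0 and 2 in every library. The 12 markers of differentiated lineages summed to between 502 and 556, with Cdx2 and Foxa2 at 0 or 1. Gata4 and Sox1 read between 113 and 146 in every library. Eomes, the highest, read 176 and 186 untreated and 228 and 215 after IAA. It was the only 1 of the 7 tested to be called (0.29, limma adjusted p = 0.0359), and it did not pass in the authors' deposited table (0.528). The part of these cells in the results below was not tested. In bulk RNA, fewer cells of a type and less RNA per cell cannot be told apart.

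At the deposited scaling, Mcl1 mRNA was nearly the same with and without IAA. Mcl1 (ENSMUSG00000038612) lies on chromosome 3 from 95658788 to 95663176 of GRCm38, on the plus strand, and its exons overlap no other annotated gene. Its 3' untranslated region of 2353 bases holds 8 copies of the pentamer ATTTA, the core of AU-rich elements that mark many unstable mRNAs. Of 12841 tested genes with a 3' untranslated region in the annotation, 8.70% held 8 or more copies, the median was 1 copy, and 65.1% held at least 1. The median length of their regions was 951 bases, shorter than that of Mcl1, and copies were not counted per length. The first site and the only one that extends to TTATTTA, which 23.9% of those genes hold, are shown as examples. They are written 5' to 3' on the mRNA strand, with ATTTA in capitals. The stability of Mcl1 mRNA, and the part of these sites in it, were not tested.
Mcl1 site 1 (chr3:95660884-95660908): aaacatgtgtATTTAtgaaggtgga
Mcl1 site 8 (chr3:95662605-95662629): tagtttgcttATTTAtgtttaactc

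Untreated libraries gave 3282 and 3385 for Mcl1, and IAA libraries gave 3242 and 3272. Both IAA values lay just below both untreated ones, by less than the untreated libraries differed from each other. Mean values were 3334 ± 72.8 (SD, n = 2) untreated and 3257 ± 21.2 (SD, n = 2) after IAA. The log2 fold change was -0.03 (SE 0.04; limma adjusted p = 0.53), and its 95% interval ran from -0.11 to 0.05, that is from 0.923 to 1.03 times the untreated level. With 12118 reads over the 4 libraries Mcl1 was the best measured of the 10 genes. At the deposited scaling, a fall to below 0.923 times the untreated level lies outside its limma interval. The interval does not cover the choice of size factors, and whether these come from a Drosophila spike-in is not stated. Factors taken from mouse reads would remove a fall shared by all mRNAs. The median over all 14928 genes tested was -0.11 at the scale of the deposited table, and 59.0% of genes had a lower value than Mcl1. Scaling instead by median-of-ratios factors, which move the median of all genes to -0.01, turned the sign for Mcl1 (0.06, adjusted p = 0.173) without a call. The authors' deposited table gives Mcl1 an adjusted p of 0.849. Its standard error there is 0.077, beside 0.04 in limma, so an interval from that table would be wider and reach below 0.923.

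Among 9409 named genes with a mean of at least 100, those whose profile over the 4 libraries lay closest to that of Mcl1 were Ptbp3, Usp36 and Ndufa4. Their Euclidean distances to it on the centred log2 scale were 0.0070, 0.0098 and 0.012. Ptbp3, a splicing regulator, read 1809, 1856, 1789 and 1801 in the order untreated replicates 1 and 2, then IAA replicates 1 and 2. With 4 libraries such likeness says only that these genes were equally flat.

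The other pro-survival genes gave no call either. Bcl2l1 (chromosome 2, 152780668 to 152831728, minus strand) stood at 256 and 238 untreated and at 230 and 258 after IAA. The groups overlapped, with the lowest and the highest of the 4 values both in IAA libraries. Its log2 fold change was -0.02 (SE 0.10, 95% interval -0.23 to 0.19; adjusted p = 0.903), a wider interval than that of Mcl1, with 902 reads behind it. Under median-of-ratios factors its sign turned too (0.08). Bcl2 (chromosome 1, 106538178 to 106714274, minus strand) was close to unread, with 4 reads in untreated replicate 1, none in replicate 2 and 1 in each IAA library. At that depth no difference could be measured, and no fold change is given. The 3' untranslated region of Bcl2 carries 15 ATTTA copies in 5086 bases, and Mcl1 came next among the 10 genes. Bcl2l11 held 6, Pmaip1 4 and Bcl2l1 1, and the other 5 held none.

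Levels can be compared between genes only per length. Divided by the kilobases of merged exon sequence of each gene, Mcl1 led the family in both groups, with a level of 975 ± 21.3 per kb (SD, n = 2) in the untreated and 953 ± 6.21 per kb in the IAA libraries. Bax followed at 811 ± 22.9 and 735 ± 48.5 per kb, and Bak1 at 437 ± 13.5 and 421 ± 15.6 per kb. Bid, Pmaip1 and Bbc3 formed a middle tier between 185 and 228 per kb in the untreated libraries, where the values of Bid and Pmaip1 overlapped. After IAA, Pmaip1 (219 ± 5.44 per kb) lay above Bid (201 ± 3.59 per kb) in both libraries. Bad and Bcl2l1, at 57.1 ± 3.87 and 53.9 ± 2.78 per kb, overlapped in the untreated libraries and were separate after IAA, at 68.0 ± 2.76 and 53.2 ± 4.32 per kb. Bcl2l11 was lower still (28.4 ± 1.23 and 24.0 ± 2.64 per kb) and Bcl2 was at 0.546 per kb or less in every library. Isoforms shorter than the merged exons would make a level per kb too low.

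**Figure D1:**
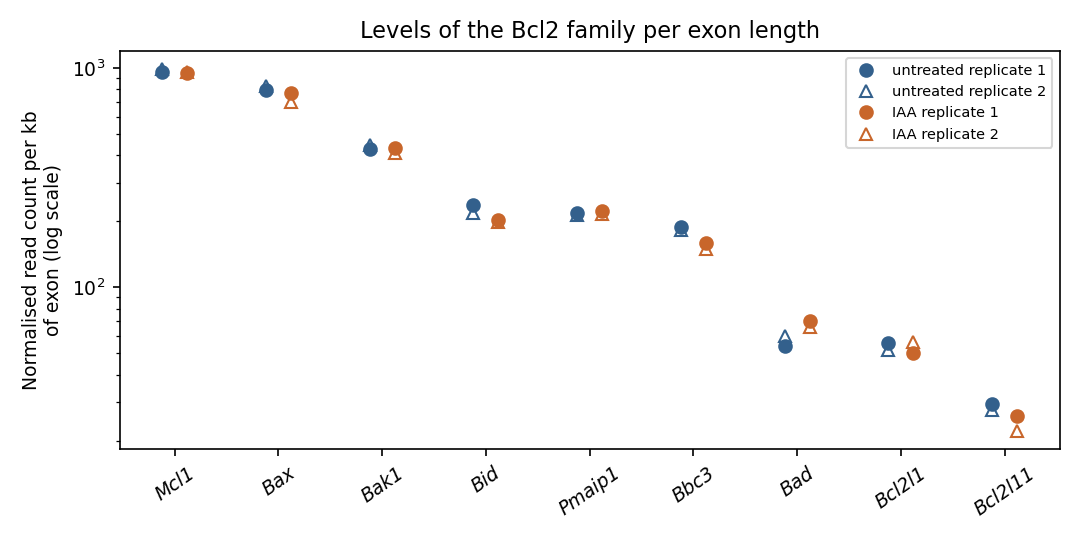
Normalised read count per kb of merged exon (log axis) for the 9 genes above the filter, ordered by their untreated mean, with 1 point per library (circles replicate 1, triangles replicate 2; blue untreated, orange IAA). Mcl1 and Bax lead, Bid, Pmaip1 and Bbc3 lie together, and Bcl2l11 is lowest, with points of the 2 groups close to each other for every gene.

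Of the summed level per kb of the 3 pro-survival genes followed here, which leaves out Bcl2l2, Mcl1 made up nearly all: 94.5% and 95.02% in the untreated libraries, and 94.97% and 94.4% after IAA. The summed level of these 3 genes divided by that of the effectors and BH3-only genes was 0.521 and 0.528 untreated, and 0.530 and 0.575 after IAA. IAA replicate 2 stood above the other 3 libraries, which lay within 0.521 to 0.530. These sums describe mRNA and were not tested.

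Of the effectors, Bax was called lower by a small margin and Bak1 was not called. Bax, whose protein moves from the cytosol to mitochondria to form pores (chromosome 7, 45461697 to 45466898, minus strand), stood at 1252 and 1303 untreated and at 1212 and 1104 after IAA. Both IAA values were below the untreated ones, with IAA replicate 2 the lowest. The log2 fold change was -0.14 (SE 0.06, 95% interval -0.26 to -0.03; adjusted p = 0.0487). That call was lost under median-of-ratios scaling (-0.04, adjusted p = 0.533), with a replicate block (0.0532) and in the authors' deposited table (0.48). Bak1, which resides in the outer membrane (chromosome 17, 27019810 to 27029009, minus strand), read 1028 and 1074 against 1041 and 988. Its groups overlapped, and the log2 fold change was -0.05 (95% interval -0.17 to 0.07; adjusted p = 0.5). Bax shares 192 exon bases with Gm45808 on the same strand, and Bak1 shares exon bases with Ggnbp1 on the opposite strand, so reads of these pairs may not be told apart. The sign for Bak1 turned with median-of-ratios factors (0.05).

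Of the 5 BH3-only genes, Bbc3 and Bid were called lower at the deposited scaling and Bcl2l11, Pmaip1 and Bad were not called. Bbc3, the p53-responsive PUMA gene (chromosome 7, 16308393 to 16318205, plus strand), stood at 400 and 387 untreated and at 339 and 319 after IAA. The gap between the groups was wider than the gap within either. At the deposited scaling it fell by 0.26 on the log2 scale (SE 0.08, 95% interval -0.43 to -0.09; adjusted p = 0.0168), the lowest value of the 9 genes. Bid, which is activated by caspase cleavage (chromosome 6, 120891930 to 120916853, minus strand), read 842 and 777 against 723 and 705. At the deposited scaling it fell by 0.18 on the log2 scale (SE 0.06; adjusted p = 0.0281), but untreated replicate 2 lay closer to IAA replicate 1 than to untreated replicate 1. Its exons share 628 bases with those of Bcl2l13, a relative on the opposite strand.

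Bcl2l11, whose product BIM is destabilised by ERK signalling (chromosome 2, 128126038 to 128162547, plus strand), read 235 and 221 against 208 and 178. The groups were separate, but IAA replicate 2 lay well below replicate 1, and the log2 fold change of -0.24 (SE 0.11) did not pass (adjusted p = 0.0842). Pmaip1, whose product NOXA targets MCL1 (chromosome 18, 66458533 to 66465565, plus strand), read 599 and 583 against 610 and 589. Its groups overlapped, and the log2 fold change was 0.02 (95% interval -0.12 to 0.16; adjusted p = 0.837). Bad, a target of survival kinases (chromosome 19, 6941861 to 6951899, plus strand), read 139 and 153 against 179 and 169. It was the only member with both IAA libraries above both untreated ones, and its log2 fold change of 0.25 (SE 0.12, 95% interval 0.00 to 0.50) did not pass at the deposited scaling (adjusted p = 0.0999). Bad shares 524 exon bases with Gpr137 on the opposite strand, which fell (220 and 200 against 134 and 151).

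**Figure D2:**
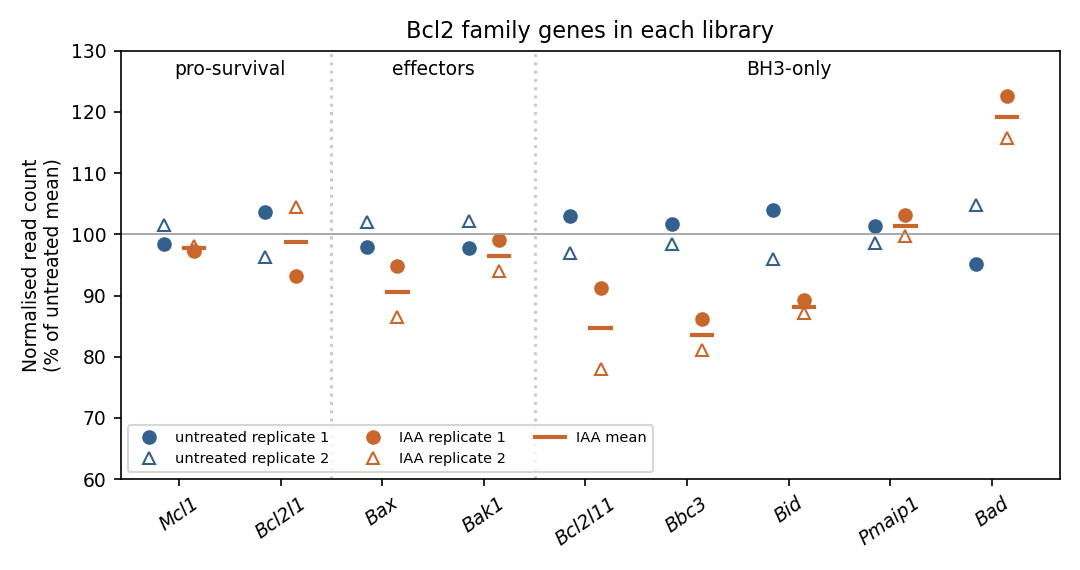
Normalised read count of each library as a percentage of the untreated mean of the same gene (blue untreated, orange IAA; circles replicate 1, triangles replicate 2; orange bar, IAA mean). Mcl1 and Pmaip1 stay near 100, Bbc3, Bid and Bcl2l11 lie below it after IAA, and Bad lies above it.

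Counted together, 3 of the 9 members tested were lower (Bax, Bbc3 and Bid) in limma at an adjusted p under 0.05. None was higher. Over all genes tested, 28.9% were called lower and 11.1% higher, so the share of members called lower was near the background. The groups did not overlap for 6 members, 5 with IAA below and 1 with IAA above, where 45.6% and 22.5% of all genes tested did so. The median of the 9 log2 fold changes was -0.05, beside -0.11 for all genes tested. All 3 calls were lost with median-of-ratios factors (Bax -0.04, Bbc3 -0.16, Bid -0.08; adjusted p = 0.533, 0.126 and 0.312), where Bad was called higher instead (0.35, adjusted p = 0.017). With those factors 20.7% of all genes were lower and 20.0% higher. In the authors' deposited table none of the 9 members had an adjusted p under 0.05, where 9.57% of the genes with such a value were lower and 2.47% higher. In limma voom on the recovered reads 3 members were lower and none higher, beside 30.0% and 11.7% of all genes. Without 1 library in turn, the voom log2 fold change of Bax ran from -0.21 to -0.076, and that of Bbc3 from -0.30 to -0.22. Bid ran from -0.24 to -0.12. Bcl2l11 ran from -0.36 to -0.13 in the same fits. Whether each of these genes passed depended on the library left out. In limma on the rounded deposited values, leaving out any 1 library took the adjusted calls to 0 for every gene, with 3330 to 3682 genes lower and 1091 to 1588 higher at an unadjusted p under 0.05.

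**Figure D3:**
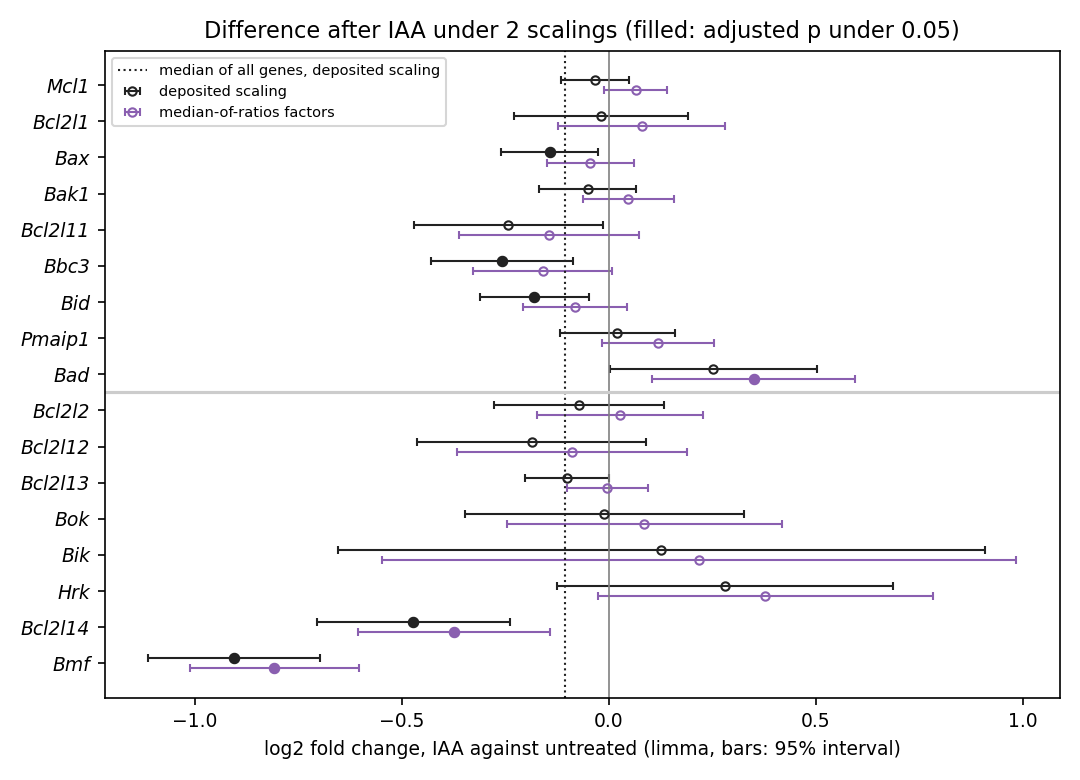
Log2 fold change of IAA against untreated with its 95% limma interval for 9 members (above the line) and 8 other Bcl2 family genes (below it), at the deposited scaling (black) and with median-of-ratios factors (purple). Filled points passed an adjusted p of 0.05, and the dotted line is the median of all genes at the deposited scaling (-0.11). Bmf and Bcl2l14 are filled under both scalings, while Bax, Bbc3 and Bid are filled only in black and Bad only in purple.

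The other Bcl2 family genes included the largest change of the family. Of 13 listed, 10 had a row and 8 were tested. Of these 8, 2 were lower and none higher, beside 28.9% and 11.1% of all genes tested. Bmf, a BH3-only gene whose product is held by the dynein light chain (chromosome 2, 118528757 to 118549687, minus strand), stood at 315 and 331 untreated and at 178 and 166 after IAA. Between means of 323 ± 11.3 and 172 ± 8.49 (SD, n = 2 per group), it fell by 0.91 on the log2 scale (SE 0.10; adjusted p = 5.92e-07), to 0.534 times the untreated level. It fell by 0.81 with median-of-ratios factors, and its adjusted p in the authors' deposited table was 0.0015. Only 3.21% of genes tested had a lower log2 fold change. Bcl2l14 (BCL-G) read 211 and 210 against 147 and 156 and fell by 0.47 (SE 0.11; adjusted p = 0.00207), and by 0.37 with median-of-ratios factors. Unlike Bmf, it did not pass in the authors' deposited table (adjusted p = 0.25). Bcl2l2 (BCL-W, -0.07), Bcl2l12 (-0.19), Bcl2l13 (-0.10), Bok (-0.01), Bik (0.13) and Hrk (0.28) were not called under either scaling. The pro-survival gene Bcl2l10 was at 3 or less in every library.

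The start regions of Mcl1, which was not called, and of Bmf, which had the lowest log2 fold change of the family, are shown as an example of each. Each window comes from RefSeq (GRCm38.p6), runs from 250 bases before to 50 bases after the annotated start, and is written 5' to 3' on the strand of the gene. Capitals mark matches on either strand to the letters of a TATA box (TATAAA), to those of a GC box (GGGCGG) and to those of a CCAAT box, which reads ATTGG on the other strand. No match overlapped another.
Mcl1 (chr3:95658471-95658770, plus strand): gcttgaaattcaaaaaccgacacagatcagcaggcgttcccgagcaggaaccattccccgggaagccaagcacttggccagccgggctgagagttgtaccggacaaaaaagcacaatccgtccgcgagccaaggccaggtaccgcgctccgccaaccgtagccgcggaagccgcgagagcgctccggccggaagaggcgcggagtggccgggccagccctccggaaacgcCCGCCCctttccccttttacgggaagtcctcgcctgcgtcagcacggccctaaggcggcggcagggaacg
Bmf (chr2:118549637-118549936, minus strand): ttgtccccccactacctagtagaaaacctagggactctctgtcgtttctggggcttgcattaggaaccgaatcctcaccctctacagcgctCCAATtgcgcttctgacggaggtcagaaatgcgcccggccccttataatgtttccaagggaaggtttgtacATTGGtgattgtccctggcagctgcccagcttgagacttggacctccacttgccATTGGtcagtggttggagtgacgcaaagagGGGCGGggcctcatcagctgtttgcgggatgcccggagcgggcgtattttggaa

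The Mcl1 window held 1 GGGCGG, no TATAAA, no CCAAT and 33 CpG dinucleotides. The Bmf window held 1 GGGCGG, 3 CCAAT and 13 CpG dinucleotides. Of the 9 members whose window was searched, 7 held GGGCGG, 1 (Bcl2l11) held CCAAT and none held TATAAA. These 9 are not the 9 tested: they include Bcl2 and leave out Pmaip1. Over all 32851 windows of that length these shares were 35.7%, 37.4% and 13.6%. Those windows were not limited to tested genes or to 1 start a gene, so they are an unlike set. The members' windows held 11 (Bak1) to 44 (Bcl2) CpG dinucleotides, beside a median of 7 over all windows. For Bbc3 and Bak1 the nearest RefSeq start lay 1190 and 382 bases from the start of the GENCODE gene, so these windows may not hold the start used by the longest model. For Mcl1 the RefSeq start lay 67 bases before the GENCODE start. The Mcl1 window shown therefore ends at 95658770, before the GENCODE gene begins at 95658788. A match is a run of letters and does not show that a factor binds.

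The mitochondrial pathway list holds the apoptosome and caspase genes, inhibitors of apoptosis and the VDAC channels of the outer membrane. Of its 21 genes tested, 8 were lower and 3 higher, beside 28.9% and 11.1% of all genes, and their median was -0.15. Median-of-ratios factors gave 7 and 5, beside 20.7% and 20.0% of all genes. The authors' deposited table gave 4 lower and 0 higher, beside 9.57% and 2.47% of the genes with an adjusted p. Apaf1, the scaffold of the apoptosome, stood at 852 and 826 untreated and at 624 and 638 after IAA and fell by 0.41 (SE 0.06; adjusted p = 2.56e-05). Birc3, an inhibitor of apoptosis protein, read 86 and 92 against 146 and 129 and was higher by 0.62 (SE 0.14; adjusted p = 0.00169). Both kept their call with median-of-ratios factors, whereas in the authors' deposited table Apaf1 passed (adjusted p = 0.0274) and Birc3 did not (adjusted p = 0.23). Of 7 genes of BCL2-interacting proteins, Bnip1, an endoplasmic reticulum SNARE, fell by 0.41 and Bag3, a co-chaperone, rose by 0.31, and the other 5 were not called. Neither Bnip1 (adjusted p = 0.284) nor Bag3 (0.215) passed in the authors' deposited table.

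Of 9 genes tested that act on the stability of MCL1 protein, 4 were lower and 2 higher, beside 28.9% and 11.1% of all genes. Scaled by median-of-ratios factors, the counts turned to 2 and 4, beside 20.7% and 20.0%. Tpt1, which encodes an MCL1-binding protein, read 7275 and 7818 against 6240 and 6216 and fell by 0.28 (SE 0.04; adjusted p = 5.08e-06). Gsk3a, one of the kinase genes whose products prime MCL1 for degradation and are inhibited in this culture, read 806 and 748 against 917 and 924 and was higher by 0.25 (SE 0.06; adjusted p = 0.00288). Marchf5, a mitochondrial ubiquitin ligase gene, fell by 0.22 (adjusted p = 0.00294) at the deposited scaling and was not called under median-of-ratios factors (adjusted p = 0.0609). In the authors' deposited table Tpt1 passed (adjusted p = 0.000701), while Gsk3a (0.223) and Marchf5 (0.205) did not.

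Of 14 tested genes that act on BH3-only genes, 2 were lower and 2 higher, against 1 and 6 under median-of-ratios factors, where the shares of all genes were again 28.9% and 11.1%, and 20.7% and 20.0%. Mdm4, a brake on p53, read 4297 and 4368 against 3033 and 2900 and fell by 0.55 (SE 0.04; adjusted p = 2.86e-09). Jun, a transcription factor gene, was higher by 0.62 (adjusted p = 0.00107), and Mdm2, the ubiquitin ligase of p53 and itself a p53 target, by 0.15 (adjusted p = 0.0171). Beyond Bax, Bbc3 and Pmaip1, 17 other p53 targets gave 4 lower and 4 higher (median-of-ratios factors: 2 and 6), led by Zmat3 (fell by 0.36), Cdkn1a (rose by 0.33) and Btg2 (rose by 0.30). In the death receptor pathway, 1 of 8 was lower (Tradd, -0.31) and 1 higher (Tnfrsf10b, 0.18), and under median-of-ratios factors 3 were higher and none lower. In the authors' deposited table Mdm4, Zmat3 and Cdkn1a passed, and Jun (adjusted p = 0.188), Mdm2 (0.353), Btg2 (0.174), Tradd (0.505) and Tnfrsf10b (0.541) did not.

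Among 24 mRNAs known as short-lived, 4 were lower and 10 higher, beside 28.9% and 11.1% of all genes (4 and 11 under median-of-ratios factors, beside 20.7% and 20.0%). Their median was 0.16, beside -0.03 for Mcl1 and -0.11 for all genes. The 3 largest changes, all lower, were those of Spry4, Egr1 and Dusp6, while the highest of the 10 higher genes was Sertad1 (0.69), named after its value was seen. Spry4 stood at 90 and 93 untreated and at 28 and 21 after IAA (log2 fold change -1.87, adjusted p = 1.24e-06). Egr1, with 93 reads in all, fell by 0.97, and its call was lost in voom without IAA replicate 2 (adjusted p = 0.0862) and without untreated replicate 2 (0.112). Dusp6 fell by 0.91 but did not pass in the authors' deposited table (adjusted p = 0.0614), where Spry4 did (0.00149). Egr1 had no adjusted p in that table. Of this list it gave 1 lower and 5 higher, beside 9.57% and 2.47% of the genes with an adjusted p. Mdm2, Jun and Btg2 stand on this list as well as on those above.

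**Figure D4:**
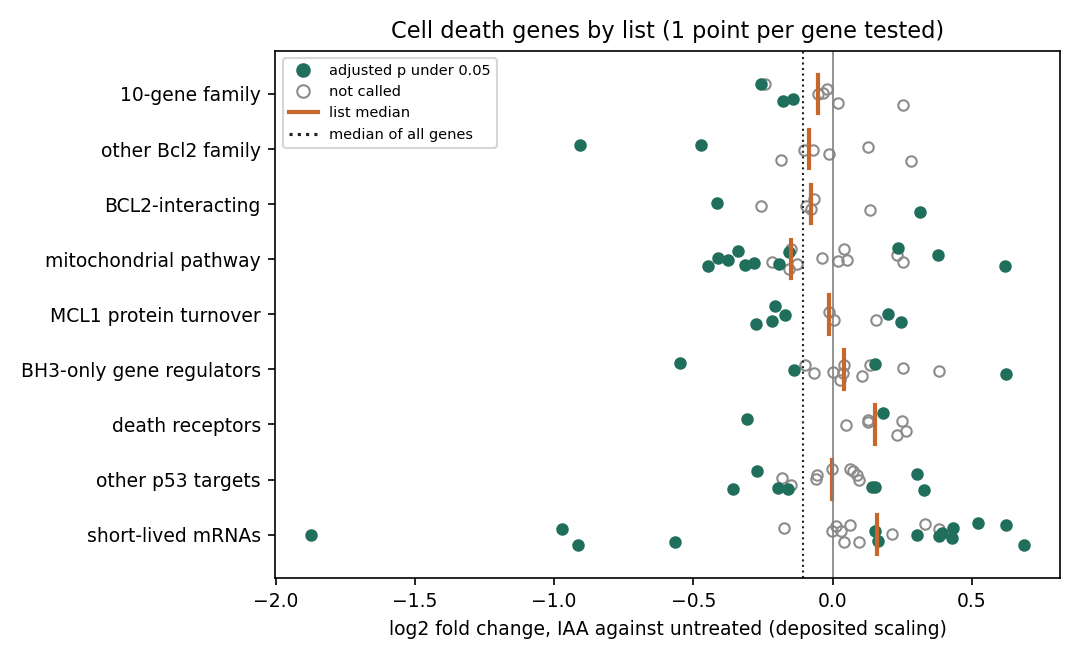
Log2 fold change of IAA against untreated at the deposited scaling, 1 point per gene tested, by gene list; filled points passed an adjusted p of 0.05, orange bars are list medians and the dotted line is the median of all genes (-0.11). The family (median -0.05) spans a narrower range than the short-lived mRNAs (median 0.16), where Spry4 lies at -1.87.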

How the data were processed

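The authors deposited 1 table of mouse genes with 4 library columns. Per the submitters' processing notes, the tools were STAR, featureCounts, DESeq2, cutadapt 1.18, Bowtie2, deepTools and SAMtools and the builds mm10 and dm6, without stated roles. Annotation and strand setting: not given in the sources used here. In the library columns the authors deposited a score, the reads of a gene over the size factor of its library (0.88 and 0.87 untreated, 0.98 and 0.95 IAA), rounded; the factors follow from the mean column, a signal, which the authors deposited unrounded. With them every gene (100%) gave whole reads, within 0.001 on the mean. Whether the factors come from the Drosophila spike-in is not stated. The authors' deposited table also holds log2 fold changes, standard errors and statistics (scores), and p-values with adjusted p-values.

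Genes with a mean of at least 10 were tested on log2(value + 1), a scale that understates changes of low genes, with limma 3.58.1 (R 4.3.3, trend), and p-values were Benjamini-Hochberg adjusted over all of them. The fit was tested on simulated data. The 10 members came from a list of symbols. From each other list the text names the 3 called genes that changed most (2 by mean level where no gene was called), and from the remaining Bcl2 family every gene tested. The values of 1 gene so chosen are not reported here. Members and lists were chosen with earlier results of these data known. Where 2 rows carry the symbol Bcl2l2, the one named so in GENCODE M21 was used, and 30214 of the 30282 IDs matched that annotation. Coordinates and merged exons are those of GENCODE M21 (GRCm38, also called mm10), with 1 coding transcript a gene for the untranslated region. The number of reads behind a value limits its precision. Pairing was checked: deviations of same-numbered libraries correlated at 0.0015, so replicate numbers were not used as a block.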

Additional observations from a re-analysis of the deposited data

How the results depend on the processing

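The report counts 3 members lower and 0 higher at a threshold of 0.05. A threshold of 0.01 left 0 lower and one of 0.1 gave 4 lower and 1 higher. The count at 0.1 is given without the share of all genes, so it is not a result about the members. Library totals and median-of-ratios factors each gave 0 lower and 1 higher (Bad), and no filter and the authors' deposited test each gave 0 lower. Leaving out 1 library of the rounded log2 values gave 0 members and 0 genes in either direction at the adjusted threshold (at an unadjusted p under 0.05, 0 to 3 members lower, 3330 to 3682 genes lower and 1091 to 1588 higher). The voom fits without 1 library, chosen after seeing the data, kept the signs of Bax, Bbc3, Bid and Bcl2l11. Which members passed changed with the library left out. Over all genes, 4312 were lower and 1650 higher. No filter left 638 and 179, and the authors' deposited test 1100 and 284. The higher count was 1037 at 0.01, 3058 with library totals and 2984 with median-of-ratios factors. Of the log2 fold changes, those of Mcl1 (0.071 and 0.065), Bak1 (0.053 and 0.047), Bcl2l1 (0.085 and 0.079), Bcl2l2 (0.032 and 0.026) and Bok (0.092 and 0.086) turned with library totals and median-of-ratios factors, and that of Bcl2l13 with library totals (0.0030). Without 1 library in turn, Bcl2l1 ran from -0.10 to 0.064, Bcl2l2 from -0.14 to 0.00018, Bik from -0.25 to 0.51, Bok from -0.12 to 0.10 and Pmaip1 from -0.0048 to 0.046. The voom fits turned Bcl2l1 (0.064 and 0.031), Bcl2l2 (7.5e-05), Bik (-0.29), Bok (0.099 and 0.038) and Pmaip1 (-0.0033). A replicate block, tried although the numbers do not pair the libraries, gave 2 members lower (Bax at an adjusted p of 0.0532 was lost), with 4311 genes lower and 1647 higher. Bmf kept its call under every alternative but the fits of rounded values without 1 library (adjusted p 0.0929 to 0.111), and Bcl2l14 lost it there, without a filter (0.0562) and in the authors' deposited test (0.25). The causes were not tested. Depth limits Bcl2, with 6 reads in all.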
